A study of Mus musculus with 10 samples.

Results

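The genes of glutathione synthesis, glutathione transfer and peroxide removal were examined as 1 module. Members were all protein-coding genes whose GENCODE M21 symbol is that of a cytosolic or mitochondrial glutathione transferase of the alpha, kappa, mu, omega, pi, theta or zeta class (Gsta, Gstk, Gstm, Gsto, Gstp, Gstt, Gstz), a microsomal glutathione transferase (Mgst), a glutathione peroxidase (Gpx), a peroxiredoxin (Prdx), a thioredoxin (Txn), a thioredoxin reductase (Txnrd), a superoxide dismutase (Sod) or a heme oxygenase (Hmox), each followed by its number, together with Gclc, Gclm, Gss, Gsr and Nqo1. The rule used names only and no measured value. It found 54 members among 55385 gene identifiers, of which 21897 are protein-coding. The study asked how repeated passaging through the liver changes an NRAS-mutant melanoma. RNA was sequenced from 5 libraries of WT31, a mouse melanoma line from Tyr::NrasQ61K/°; INK4a−/− mice, and 5 libraries of WT31_P5IV, the subline that was recovered from liver metastases of intravenously injected cells in 5 successive cycles. Both lines carry that genotype, received no drug and were grown sub-confluent in the same medium with serum, so the RNA is that of cultured cells and not of metastases. Each group is 1 line, and the labels call its libraries biological replicates without naming separate clones, so p-values measure the spread between these libraries.

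Glutathione is a tripeptide that is made from glutamate and cysteine by glutamate-cysteine ligase (Gclc, the catalytic subunit, and Gclm, the modifier subunit) and then completed by glutathione synthetase (Gss). Glutathione peroxidases use it to reduce peroxides, glutathione transferases join it to electrophiles, and glutathione reductase (Gsr) restores its reduced form with NADPH. Peroxiredoxins reduce peroxides through cysteines that thioredoxin and thioredoxin reductase restore, superoxide dismutases supply hydrogen peroxide from superoxide, and heme oxygenases break down heme. Many of these genes are known targets of the transcription factor NRF2, which binds antioxidant response elements, and melanocytes meet oxidants as a by-product of making melanin.

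Libraries held 24255389 to 25750639 estimated counts. Of 13620 genes with enough counts to be tested, 41 were members. Melanocyte markers were present as labelled, with 10 of 10 genes tested and a summed level of 17491 to 18920 CPM (normalised counts, on TMM-scaled library sizes) in WT31 and 22619 to 26117 CPM in WT31_P5IV. Of these 10, 3 were higher by edgeR, Pmel (233% of WT31) and Dct (174%) among them, and 5 were lower, Tyrp1 (51.4%) and S100b (72.5%) among them. Hepatocyte markers summed to 0.341 to 0.627 CPM in WT31 and 0.483 to 1.3 CPM in WT31_P5IV, and 4 of 10 were at 0 counts in every library. Macrophage and leukocyte markers summed to 4.92 to 6.72 and 4.34 to 6.32 CPM (4 of 10 at 0 throughout), endothelial markers to 5.53 to 7.72 and 8.92 to 10.9 CPM (2 of 10), and stellate cell and fibroblast markers to 2.36 to 3.14 and 4.34 to 4.96 CPM (1 of 10). The part of endothelial and stellate cell markers in the results below was not tested. WT31 replicates 2 and 3 stood apart from replicates 1, 4 and 5: their counts differed by 7.81 to 22.7 chi-square units per degree of freedom, against 2.37 to 5.68 within these sets and 3.3 to 8.91 between WT31_P5IV libraries.

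More of the tested members were lower than higher in WT31_P5IV. By edgeR's quasi-likelihood test at an adjusted p under 0.05, 21 of 41 members were lower (51.2%, against 33.9% of all genes tested) and 12 were higher (29.3%, against 34.6% of all genes tested), while 8 were not called. Because 68.5% of all genes tested were called in these libraries, a call by itself sets no member apart. The median log2 fold change was −0.17 over the tested members and 0.01 over all genes tested. For 28 of 41 members, against 54.1% of all genes tested, no library of one line fell within the range of the other. In 19 of the 41 all WT31_P5IV libraries were lower (against 27.5% of all genes tested), and in 9 all of them were higher (against 26.6%). The filter the study used, an adjusted p under 0.05 together with a change of 1 or more on the log2 scale in either direction, was passed by 7 members (17.1%, against 9.10% of all genes tested), and by 3 or 2 members with limma on log2 TPM with a pseudocount of 0.1 or 1. Of these, 6 were higher (against 5.42% of all genes tested) and 1 was lower (against 3.69%). All 7 were cytosolic glutathione transferases. Prdx3, a peroxiredoxin, stood just outside this filter (log2 fold change −0.98) and passed it under some alternatives, for example with −1.05 by limma voom without scaling or filter and −1.04 with every gene of at least 1 count. Of the 6 higher members, Gstt2 (1.01) passed it in 9 of 20 alternatives, Gstm6 (1.08) in 13 of 19 and Gstm2 (1.07) in 17 of 20. Gsta3 and Gstm6 had enough counts for the test only through the group in which they were higher, so their passing supports nothing. In these bulk samples, fewer cells that express a gene and less of its RNA per cell cannot be told apart.

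**Figure D1:**
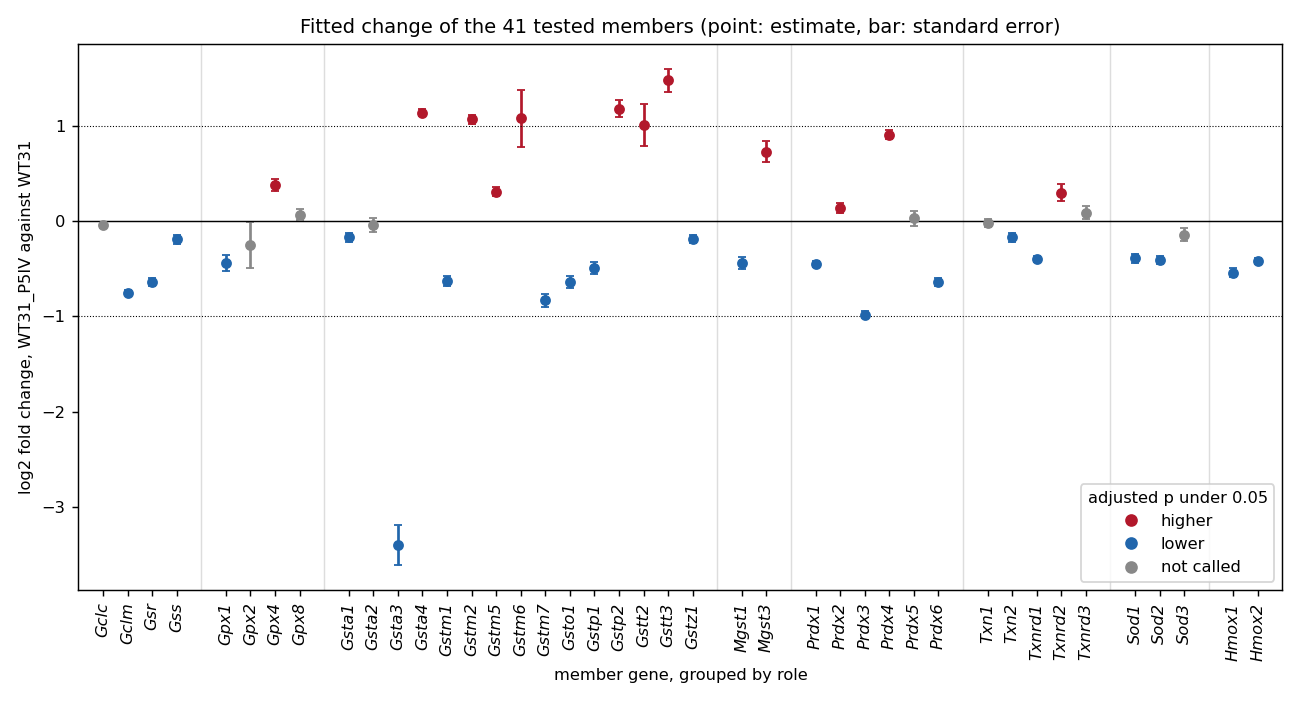
Log2 fold change of WT31_P5IV against WT31 (y axis) for the 41 tested members, grouped by role along the x axis. Points are the edgeR estimates with their standard errors, coloured by the call at an adjusted p under 0.05, and dotted lines mark −1 and 1. Of the 7 members outside the dotted lines, 6 are above and Gsta3 is below, and all are transferases. Prdx3 lies at −0.98.

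Counts differed by abundance. Among the 30 members with a mean of at least 20 CPM, 19 were lower (63.3%, against 42.9% of the 7643 genes tested at that level) and 6 were higher (20%, against 32.4%). Among the 11 members below 20 CPM, 6 were higher (54.5%, against 37.3% of the 5977 such genes) and 2 were lower (18.2%, against 22.4%), or 5 and 1 of 9 without Gstm6 and Gsta3, which had enough counts only through the group in which they were higher. In both abundance classes all genes tested thus leaned the same way as the members. The split at 20 CPM was chosen with the values known and carries no test.

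**Figure D2:**
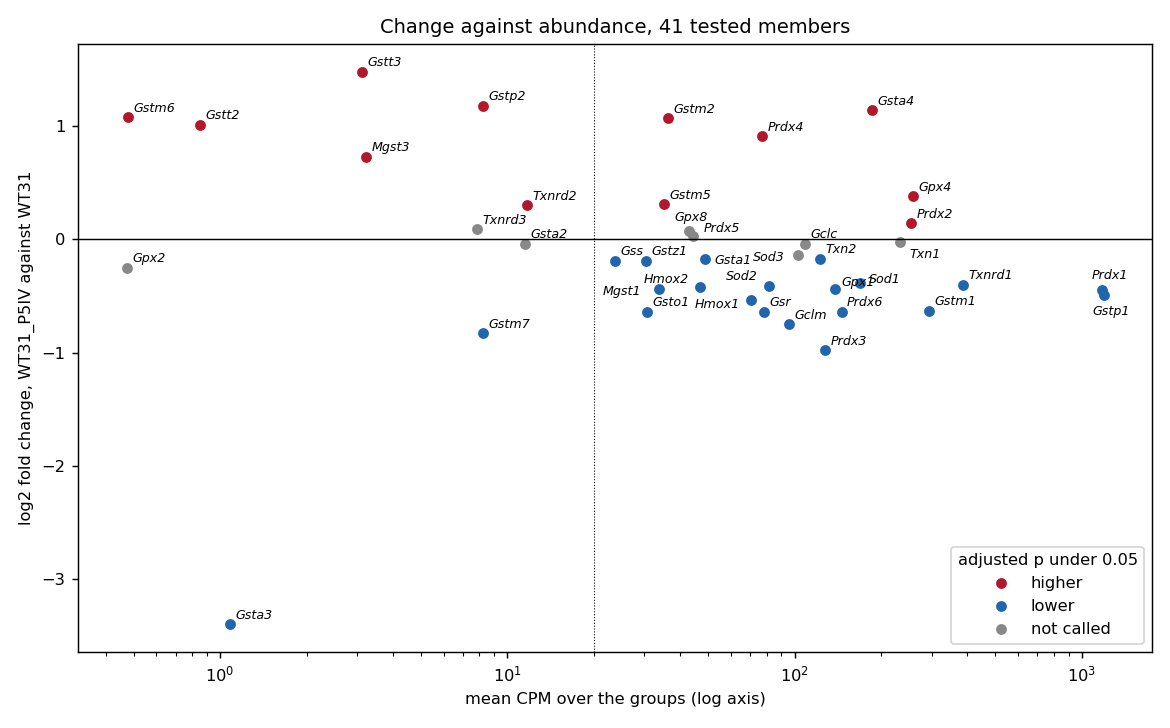
Log2 fold change (y axis) against the mean CPM of both groups (x axis, log scale) for the 41 tested members, coloured by their call. The dotted line is at 20 CPM. The most abundant members, Gstp1 and Prdx1, lie below 0, and most points above 1 are at low CPM.

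Levels between genes were compared on the TPM scale, which is per transcript length. Gstp1 was the most abundant member in both lines, with 3325 ± 246 TPM in WT31 and 2102 ± 56.5 TPM in WT31_P5IV (mean ± SD, n = 5 each), followed by Prdx1 with 2117 ± 76 and 1339.8 ± 40.4 TPM. Of the members' summed TPM, Gstp1 made up 31.5% in WT31 and 27.3% in WT31_P5IV, and Prdx1 20.1% and 17.4%. The summed TPM of all 54 members was 9895 to 10868 in WT31 and 7408 to 7893 in WT31_P5IV, so that the groups did not overlap. TPM values of WT31_P5IV were lower for the median gene too, by 0.17 on the log2 scale relative to TMM-scaled counts, and the sums carry that shift. Behind Gstp1 and Prdx1 the order differed between the lines. Sod1, Gstm1 and Gpx4 were next in WT31, whereas Gpx4, Gsta4 and Sod1 were next in WT31_P5IV, where Gsta4 stood at rank 4 after rank 11 in WT31.

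Within glutathione synthesis the modifier subunit of the rate-limiting ligase was lower, and the catalytic subunit was not called. Gclm, the modifier subunit, read 121, 116, 119, 119 and 123 CPM in WT31 replicates 1 to 5 and 72.8, 73.1, 72.7, 69.9 and 68.2 CPM in WT31_P5IV. All WT31_P5IV libraries were below all WT31 libraries, and the fitted level was 59.6% of WT31 (log2 fold change −0.75 ± 0.03 SE, edgeR adjusted p = 1.4e-10). Gclc, the catalytic subunit, read 111, 111, 114, 108 and 106 CPM in WT31 and 107, 108, 109, 105 and 107 CPM in WT31_P5IV. These ranges overlapped, and the 95% interval of the log2 difference ran from −0.11 to 0.04. With limma voom without scaling or filter, however, Gclc was called lower (log2 fold change −0.11, limma adjusted p = 0.0233). The ratio of Gclm to Gclc in TPM was 2.17 ± 0.226 in WT31 and 1.47 ± 0.0634 in WT31_P5IV, and the lowest WT31 ratio (1.92) was above the highest WT31_P5IV ratio (1.55). Gss, which adds glycine, was 87.7% of WT31 (edgeR adjusted p = 0.00486). Gsr, the reductase that recycles oxidized glutathione, read 96.8, 93.9, 92.8, 97.1 and 96.2 CPM in WT31 and 61.6, 60.3, 59.7, 65.2 and 59.9 CPM in WT31_P5IV, again without overlap. Its fitted level was 64.3% of WT31 (edgeR adjusted p = 1.12e-09).

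Gclm lies on chromosome 3 (GRCm38, chr3:122245557-122270732, plus strand). Its upstream sequence is shown because Gclm is a textbook NRF2 target and had the lowest adjusted p among the synthesis genes. The 9-base core of the antioxidant response element, TGACNNNGC, was searched on both strands in the RefSeq promoters of GRCm38.p6, which run from 250 bases before to 50 bases after each start. The Gclm window from chr3:122245307-122245556 (plus strand) holds 1 match, in capitals, which begins 134 bases before the start and lies on the minus strand.
Gclm promoter: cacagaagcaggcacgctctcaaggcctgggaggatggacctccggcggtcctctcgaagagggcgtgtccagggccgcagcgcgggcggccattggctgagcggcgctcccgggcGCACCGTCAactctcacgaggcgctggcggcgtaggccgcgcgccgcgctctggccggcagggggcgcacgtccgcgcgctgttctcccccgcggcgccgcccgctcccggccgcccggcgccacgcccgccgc

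Glutathione peroxidases moved in opposite directions. Gpx1, the cytosolic and mitochondrial enzyme that reduces hydrogen peroxide, read 159, 132, 144, 174 and 185 CPM in WT31 and 119, 116, 108, 126 and 117 CPM in WT31_P5IV. Gpx4, which reduces lipid hydroperoxides in membranes and guards against ferroptosis, read 239, 194, 199.9, 242 and 249 CPM in WT31 and 292, 296, 279, 290.4 and 306 CPM in WT31_P5IV. Neither gene overlapped between the groups: Gpx1 was lower (73.8% of WT31, edgeR adjusted p = 0.000148) and Gpx4 higher (130.2%, edgeR adjusted p = 9.99e-05). The log2 fold change of Gpx4 was 0.38 ± 0.06 SE with all libraries and 0.25 without WT31 replicates 2 and 3, in which it was lowest. Of the 31-base words of Gpx4 transcripts, 38.9% also occur in other genes, so that its counts may be shared with a copy. The TPM ratio of Gpx4 to Gpx1 was 1.33 to 1.5 in WT31 and 2.38 to 2.63 in WT31_P5IV. Gpx8, of the endoplasmic reticulum, had 41.8 ± 3.88 CPM in WT31 and 44.0 ± 1.14 CPM in WT31_P5IV, and Gpx2, known from the gut, had 0.517 ± 0.128 and 0.433 ± 0.0764 CPM. Neither was called (95% intervals of the log2 difference −0.06 to 0.2 and −0.81 to 0.32). Gpx3, the secreted plasma enzyme, had at most 5 counts in a library (exact two-sided permutation test, p = 0.317, n = 5 per group), Gpx5 and Gpx7 at most 1, and Gpx6 had 0 in every library, which allows up to 0.114 to 0.129 CPM at a limit of 3 counts.

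Gpx1 to Gpx4 and the thioredoxin reductases share a residue that the rule did not use. Their active site holds selenocysteine, which is encoded by an in-frame TGA that elsewhere ends translation. The codon was found in the annotated coding sequences of 7 members (GENCODE M21, GRCm38) and is shown in capitals with 24 coding bases before it and up to 24 after it, since its place differs between the families: in the peroxidases it stands early (codon 47 of 201 in Gpx1, 40 of 190 in Gpx2, 73 of 226 in Gpx3 and 73 of 197 in Gpx4), and in the reductases it is the last codon but one (498 of 499 in Txnrd1, 526 of 527 in Txnrd2 and 614 of 615 in Txnrd3).
Gpx1, chr9:108339451-108339453, plus strand: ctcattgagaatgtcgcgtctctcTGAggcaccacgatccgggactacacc
Gpx2, chr12:76795256-76795258, minus strand: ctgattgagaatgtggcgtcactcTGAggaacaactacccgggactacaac
Gpx3, chr11:54907256-54907258, plus strand: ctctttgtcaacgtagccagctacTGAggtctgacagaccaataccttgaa
Gpx4, chr10:80054737-80054739, plus strand: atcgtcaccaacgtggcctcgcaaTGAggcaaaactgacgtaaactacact
Txnrd1, chr10:82896037-82896039, plus strand: ggagacatcctccagtctggctgcTGAggt
Txnrd2, chr16:18477772-18477774, plus strand: ctggagcctactgtgactggttgcTGAggc
Txnrd3, chr6:89674789-89674791, plus strand: ctggacattactcagaaaggctgcTGAggc
Of the 6 selenocysteine members tested, Gpx4 and Txnrd2 were higher, Gpx1 and Txnrd1 were lower, and Gpx2 and Txnrd3 were not called. Their median log2 fold change was −0.08, and the counts of 2 higher and 2 lower were near the shares over all genes tested (34.6% higher and 33.9% lower), so nothing is read from them. Of 11 genes that build or insert selenocysteine or carry selenium, all tested, 4 were higher and 6 lower, against the same shares, with a median of −0.11. All lay between −0.59 and 0.41.

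The glutathione transferases held the largest rise among tested members, that of Gstt3 (log2 fold change 1.48). Gsta3 had the largest fall (−3.4) but enough counts only through WT31, and without it the largest was that of Prdx3 (−0.98), a peroxiredoxin. Of 22 transferase genes, 15 were tested, of which 7 were higher, 7 lower and 1 not called (against 34.6% higher and 33.9% lower of all genes tested). The 7 higher include Gstm6 and the 7 lower include Gsta3, which had enough counts only through the group in which they were higher. Gstp1, a pi-class enzyme and the most abundant transferase, read 1447, 1179.7, 1317, 1497 and 1519 CPM in WT31 and 988, 971, 993, 1034 and 971 CPM in WT31_P5IV. It was lower in every WT31_P5IV library than in any WT31 library (71.2% of WT31, log2 fold change −0.49 ± 0.06 SE, edgeR adjusted p = 4.1e-06). Gstp2, its neighbour on chromosome 19, read 4.59, 5.19, 4.39, 4.72 and 6.22 CPM in WT31 and 11.5, 11.3, 11.7, 12.3 and 10.3 CPM in WT31_P5IV. It was higher without overlap (log2 fold change 1.18 ± 0.09 SE, edgeR adjusted p = 2.52e-08), but the TPM ratio of Gstp2 to Gstp1 was only 0.00788 ± 0.00129 in WT31 and 0.0239 ± 0.00159 in WT31_P5IV. Gstp3 had at most 1 count in a library.

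The pi-class copies are nearly identical, which bears on how reads were divided between them. Their coding sequences of 630 bases differ at 12 positions (98.1% identity), and 54.8% of the 31-base words of Gstp2 transcripts also occur in Gstp1. The first 60 coding bases are shown because they hold 6 of the 12 differences, in capitals.
Gstp1, coding bases 1 to 60: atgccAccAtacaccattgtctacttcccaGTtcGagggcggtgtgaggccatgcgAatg
Gstp2, coding bases 1 to 60: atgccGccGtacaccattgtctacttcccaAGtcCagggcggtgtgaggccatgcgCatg
A small share of Gstp1 reads given to Gstp2 would be large beside the level of Gstp2, so the change of Gstp2 is uncertain. Summed over both copies, the log2 fold change was −0.48 ± 0.06 SE (edgeR adjusted p = 4.71e-06).

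Mu-class transferases, which conjugate aromatic and other electrophiles, lie in 1 cluster on chromosome 3 and diverged from each other. Gstm1 read 365, 324, 336, 371 and 395 CPM in WT31 and 229.8, 224, 230.4, 250.1 and 221 CPM in WT31_P5IV. Gstm2 read 23.6, 22.3, 21.6, 25.7 and 23.6 CPM in WT31 and 47.4, 50.4, 49.8, 49.8 and 47.8 CPM in WT31_P5IV. Neither gene overlapped between the groups, and they went in opposite directions: Gstm1 was 64.5% of WT31 (edgeR adjusted p = 8.17e-08) and Gstm2 was 210.0% (log2 fold change 1.07 ± 0.05 SE, edgeR adjusted p = 8.85e-11). The TPM ratio of Gstm1 to Gstm2 was 12.4 ± 0.766 in WT31 and 3.84 ± 0.189 in WT31_P5IV. Coding sequences of this pair are 85.9% identical, and 28.8% of the Gstm1 words and 12.2% of the Gstm2 words occur in other genes. Gstm5 was higher (124%, 31.5 ± 2.57 and 39.0 ± 1.45 CPM) and Gstm7 lower (56.2%, 10.5 ± 0.554 and 5.9 ± 0.378 CPM). Gstm6 was higher in the fit (log2 fold change 1.08 ± 0.3 SE, and 1.03 with edgeR adjusted p = 0.0111 with every gene of at least 1 count), but with 0.189 to 0.59 CPM in WT31 and 0.496 to 0.758 CPM in WT31_P5IV its groups overlapped. Gstm3 and Gstm4 had at most 3 counts in a library. Summed over Gstm1 to Gstm4, Gstm6 and Gstm7, which share words, the log2 fold change was −0.46 ± 0.05 SE (edgeR adjusted p = 1.49e-06).

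Among alpha-class genes, an abundant one was higher and a rare one was lower. Gsta4, which conjugates hydroxynonenal and related products of lipid peroxidation, read 121, 113, 108, 117 and 121 CPM in WT31 and 256, 249, 261, 259 and 254 CPM in WT31_P5IV. Every WT31_P5IV library was more than 100 CPM above every WT31 library, and the fitted level was 221% of WT31 (log2 fold change 1.14 ± 0.04 SE, edgeR adjusted p = 4.56e-12). Gsta3 (chr1, the only alpha member outside chromosome 9) read 1.65, 1.74, 2.12, 2.2 and 2.22 CPM in WT31 and 0.168, 0.172, 0.161, 0.168 and 0.248 CPM in WT31_P5IV, which was 9.48% of WT31. Since its counts passed the filter only through WT31, the test is given from the fit of every gene with at least 1 count (edgeR adjusted p = 7.47e-17). Gsta1 was slightly lower (89.1%, 51.8 ± 3.71 and 46.1 ± 2.0 CPM, edgeR adjusted p = 0.00918) with overlapping libraries, and Gsta2 was not called (11.7 ± 1.12 and 11.3 ± 0.625 CPM, 95% interval −0.21 to 0.12). Of the Gsta1 words 92.9% occur in other genes, as do 60.7% of those of Gsta2, so these levels may be shared between copies. Summed over Gsta1, Gsta2 and Gsta3, the log2 fold change was −0.19 ± 0.05 SE (edgeR adjusted p = 0.0024).

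Theta-class genes, 4 neighbours on chromosome 10, were low throughout. Gstt3 read 1.45, 2.08, 1.49, 1.77 and 1.43 CPM in WT31 and 4.5, 4.07, 4.58, 4.67 and 5.08 CPM in WT31_P5IV, the largest increase among tested members (278% of WT31, log2 fold change 1.48 ± 0.12 SE, edgeR adjusted p = 5.66e-08). Gstt2 had 0.475 to 0.705 CPM in WT31 and 0.826 to 1.64 CPM in WT31_P5IV, also without overlap (log2 fold change 1.01 ± 0.22 SE, edgeR adjusted p = 0.000856). Gstt1, which the filter on low counts left out, had 0 to 3 counts in the WT31 libraries and 6 to 18 in those of WT31_P5IV. With WT31 at the limit of 3 counts per library, Gstt1 was at least 4.55-fold higher (exact two-sided permutation test, p = 0.00794, the smallest p that 5 against 5 allows). On the TPM scale Gstt2 overlapped, with 0.364 to 1.22 TPM in WT31 and 0.76 to 2.19 TPM in WT31_P5IV. Gstt4 had 0 counts throughout. Gsto1 (omega class, which reduces dehydroascorbate) was 64.0% of WT31 and Gstz1 (zeta class, of tyrosine breakdown) was 87.5%, both without overlap. Gsto2 had at most 10 counts in a library (exact two-sided permutation test, p = 0.302, n = 5 per group) and Gstk1, the mitochondrial kappa-class gene, at most 1.

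The make-up of the transferase pool differed between the lines. Its summed TPM was 4032 to 4699 in WT31 and 3106 to 3339 in WT31_P5IV. The pi class held 74.8% ± 0.939 of that sum in WT31 and 66.5% ± 0.0752 in WT31_P5IV (mean ± SD, n = 5), and the alpha class 9.12% ± 0.505 and 17.8% ± 0.163. The mu class held 13.8% ± 0.352 and 13.6% ± 0.149, although its members went in opposite directions, and the omega class 1.41% and 1.11%. These shares are levels within a library, so the shift of all TPM values does not enter them. No test was made of them.

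**Figure D3:**
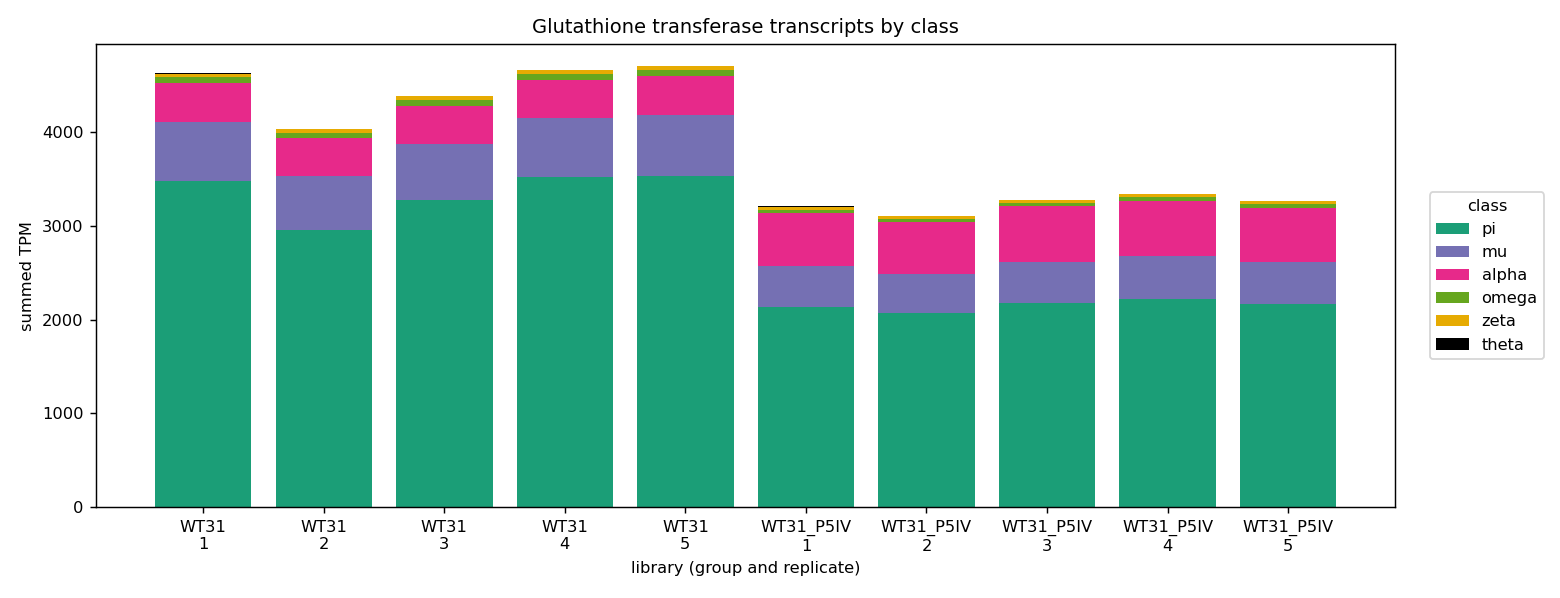
Summed TPM of the glutathione transferases (y axis) in each of the 10 libraries (x axis), stacked by class. The kappa class, at most 0.082 TPM in a library, is not drawn. The alpha block is 401 to 417 TPM in WT31 and 553 to 588 TPM in WT31_P5IV, although the whole bar is shorter in WT31_P5IV.

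Microsomal transferases are membrane enzymes that protect lipids from peroxidation or make leukotrienes. Mgst1 was lower (38.7 ± 3.26 and 28.6 ± 0.869 CPM, log2 fold change −0.44 ± 0.06 SE, edgeR adjusted p = 6e-06), on a chromosome whose median gene rose by 0.28. Mgst3 was higher (2.42 ± 0.349 and 4.02 ± 0.194 CPM, log2 fold change 0.73 ± 0.11 SE, edgeR adjusted p = 2.83e-05). Libraries of neither gene overlapped between the groups. Mgst2 had 3 to 10 counts in the WT31 libraries and 1 to 5 in those of WT31_P5IV (exact two-sided permutation test, p = 0.167, n = 5 per group).

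Of the 6 peroxiredoxins, 3 were lower, 2 higher and 1 was not called, against 33.9% lower and 34.6% higher of all genes tested. Prdx1, the abundant cytosolic enzyme, read 1415, 1291, 1338, 1392 and 1379.9 CPM in WT31 and 986, 995, 987, 1006 and 1009 CPM in WT31_P5IV. The groups were far apart relative to their spread, and the fitted level was 73.1% of WT31 (log2 fold change −0.45 ± 0.03 SE, edgeR adjusted p = 2.79e-08). Prdx3, of mitochondria, read 169.7, 159, 166, 176 and 179 CPM in WT31 and 88.4, 82.4, 81.6, 91.9 and 85.8 CPM in WT31_P5IV, which was 50.6% of WT31 (log2 fold change −0.98 ± 0.04 SE, edgeR adjusted p = 9.9e-11). Prdx4, of the endoplasmic reticulum, read 52.7, 48.9, 49.4, 58.3 and 59.3 CPM in WT31 and 100.3, 105, 101, 97.2 and 102 CPM in WT31_P5IV, which was 188% of WT31 (log2 fold change 0.91 ± 0.05 SE, edgeR adjusted p = 2.03e-09). Prdx3 and Prdx4 thus changed places: the TPM ratio of Prdx4 to Prdx3 was 0.481 to 0.535 in WT31 and 1.7 to 2.05 in WT31_P5IV. Prdx6, which uses a single catalytic cysteine and also cleaves phospholipids, was 64.1% of WT31 without overlap (178 ± 6.99 and 114 ± 4.43 CPM, edgeR adjusted p = 2.68e-09). Prdx2, also cytosolic, was called higher at 110.4% (242 ± 15.5 and 267 ± 9.27 CPM, edgeR adjusted p = 0.0115) with overlapping libraries, and it was no longer called without WT31 replicate 3 (edgeR adjusted p = 0.0501) or without replicates 2 and 3 (edgeR adjusted p = 0.144), with every gene of at least 1 count (edgeR adjusted p = 0.158) or by limma voom without scaling or filter (adjusted p = 0.194). Prdx5 was not called (43.7 ± 5.99 and 44.7 ± 1.81 CPM, 95% interval −0.14 to 0.21).

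The Prdx1 promoter is shown as that of the most abundant lowered member with a match to the core motif. The window chr4:116685349-116685598 (GRCm38.p6, plus strand) holds 1 match, in capitals, on the minus strand and beginning 133 bases before the start.
Prdx1 promoter: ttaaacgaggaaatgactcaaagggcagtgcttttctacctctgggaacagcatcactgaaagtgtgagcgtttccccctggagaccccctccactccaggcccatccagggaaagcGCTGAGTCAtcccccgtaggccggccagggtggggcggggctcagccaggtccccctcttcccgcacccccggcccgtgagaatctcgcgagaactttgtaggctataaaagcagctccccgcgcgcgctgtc

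**Figure D4:**
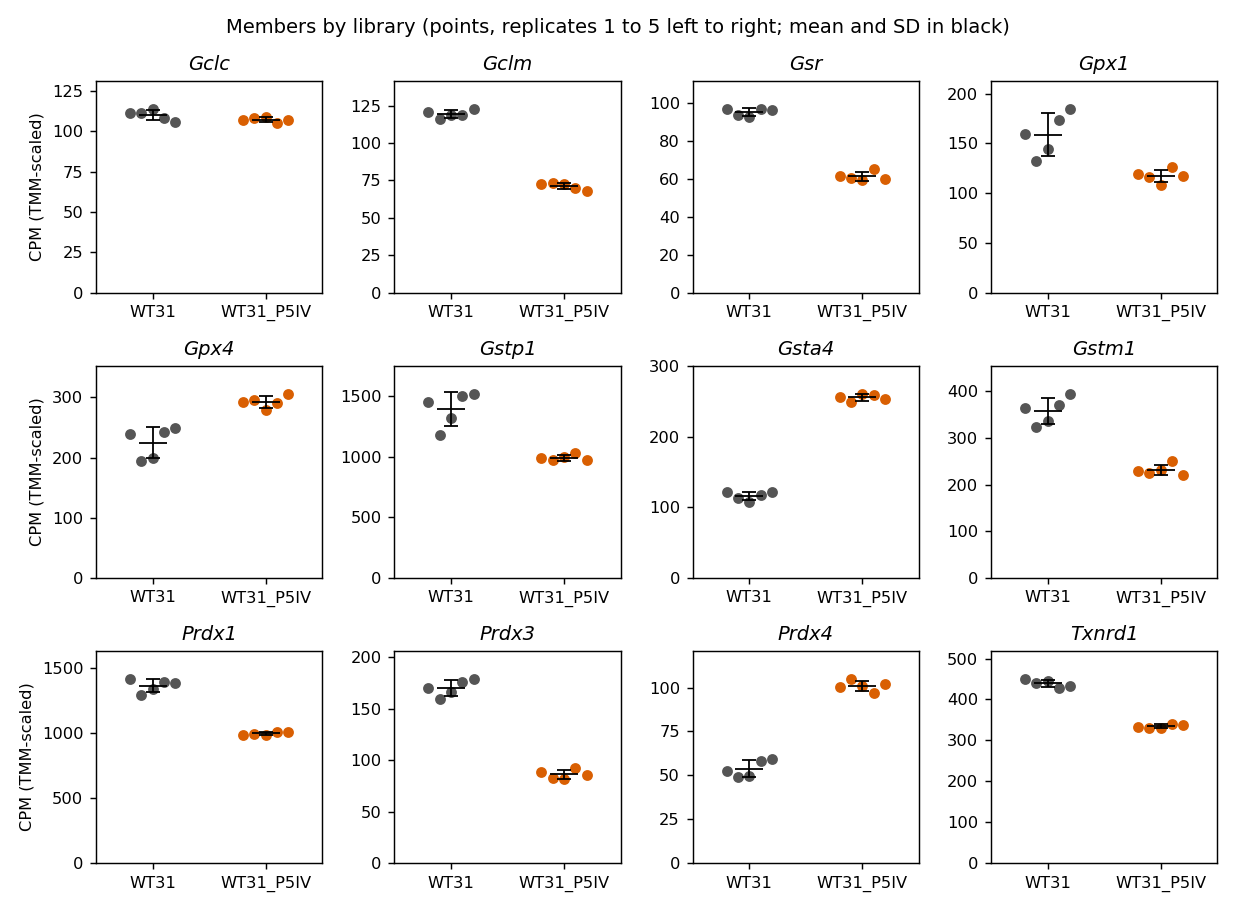
CPM on TMM-scaled library sizes (y axis, from 0) of 12 members in the 5 WT31 and 5 WT31_P5IV libraries (points, in order of replicate), with the mean and SD in black. Gclc overlaps between the groups. In Gpx1, Gpx4 and Gstp1 the points of WT31 replicates 2 and 3 lie below the other WT31 points.

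In the thioredoxin system the reductase of the cytosol was lower, and its substrate was not called. Txnrd1, the cytosolic selenoprotein reductase, read 450.2, 439.9, 445, 429 and 432 CPM in WT31 and 333, 329, 329.7, 339.9 and 338 CPM in WT31_P5IV. It was lower without overlap (76.0% of WT31, log2 fold change −0.40 ± 0.03 SE, edgeR adjusted p = 3.21e-08). Txn1, cytosolic thioredoxin, read 239.9, 219.7, 222, 246 and 247 CPM in WT31 and 234, 222, 226, 248 and 225 CPM in WT31_P5IV, with overlap and a 95% interval of the log2 difference from −0.13 to 0.08. The mitochondrial pair went apart: Txn2 was 88.8% of WT31 (129.9 ± 11.2 and 115 ± 4.44 CPM, edgeR adjusted p = 0.012) and Txnrd2 was 123% (10.5 ± 0.83 and 12.9 ± 1.57 CPM, edgeR adjusted p = 0.00665), both with overlapping libraries. Txnrd2 was no longer called with limma voom without scaling or filter (limma adjusted p = 0.0764). Txnrd3, known from testis, was not called (7.56 ± 0.245 and 8.08 ± 0.577 CPM, 95% interval −0.06 to 0.25).

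For Txnrd1 RefSeq gives 3 promoter windows, of which 1 holds the core motif. It is shown beside those of Gclm and Prdx1, which were also lower and also hold a match. Gstm5 holds a match too but was higher, and Gstp1 and Prdx3 were lower without one. A part of the motif in these changes was not tested. The window chr10:82858956-82859205 (GRCm38.p6, plus strand) has its match, in capitals, on the minus strand and beginning 92 bases before the start. Which start the cells used was not tested.
Txnrd1 promoter: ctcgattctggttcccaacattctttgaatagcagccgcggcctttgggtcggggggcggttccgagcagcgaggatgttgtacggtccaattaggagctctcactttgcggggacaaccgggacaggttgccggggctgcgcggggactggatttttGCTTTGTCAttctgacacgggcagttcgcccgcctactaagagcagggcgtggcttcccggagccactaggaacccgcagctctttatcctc

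Superoxide dismutases and heme oxygenases were lower where called. Sod1, the copper-zinc enzyme of the cytosol, read 194, 181, 182, 195 and 205 CPM in WT31 and 147, 133, 148, 148 and 153 CPM in WT31_P5IV. Sod2, the manganese enzyme of mitochondria, had 92.8 ± 3.02 CPM in WT31 and 69.9 ± 2.77 CPM in WT31_P5IV. Both were lower without overlap, Sod1 at 76.3% of WT31 (edgeR adjusted p = 2.36e-06) and Sod2 at 75.3% (edgeR adjusted p = 2.58e-07). Sod3, the extracellular enzyme, was not called (108 ± 12.9 and 98.4 ± 7.51 CPM, 95% interval −0.31 to 0.04). Hmox1, the inducible heme oxygenase, read 83.2, 73.6, 81.7, 85.3 and 93.1 CPM in WT31 and 58.3, 60.5, 56.3, 56.9 and 55.2 CPM in WT31_P5IV. It was lower without overlap (68.9% of WT31, log2 fold change −0.54 ± 0.05 SE, edgeR adjusted p = 5.07e-07), as was Hmox2, the constitutive form (53.3 to 55.1 and 38.8 to 41.9 CPM, log2 fold change −0.42 ± 0.03 SE, edgeR adjusted p = 5.86e-08). Of the Hmox2 words 46.0% occur in other genes (37.0% in Cdip1), as do 26.7% of those of Sod2, so these counts may be shared. Nqo1, a quinone reductase and a common readout of NRF2, was close to absent, with 5 to 15 counts in the WT31 libraries and 2 to 7 in those of WT31_P5IV (exact two-sided permutation test, p = 0.0397, n = 5 per group). With every gene of at least 1 count in the fit, its edgeR adjusted p was 0.0638.

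Sod1, Hmox2 and Txnrd2 lie on chromosome 16, where the median log2 fold change of all genes tested was −0.42. Sod1 (−0.39) and Hmox2 (−0.42) were as low as the median gene of their chromosome, and Txnrd2 (0.30) was above it. On the other chromosomes with a tested member the median lay between −0.13 and 0.28. The part of chromosome 16 in the values of Sod1 and Hmox2 was not tested.

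Across roles, the peroxidases alone had summed levels that overlapped between the lines, with 835 to 984 TPM in WT31 and 847 to 901 TPM in WT31_P5IV. In the other 7 roles the lowest WT31 library was above the highest WT31_P5IV library, for example at 248 to 253 against 159 to 171 TPM for glutathione synthesis and reduction, and at 2942 to 3143 against 2006 to 2167 TPM for the peroxiredoxins. On this scale the median gene was lower too, as given above.

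Of the 54 members, 47 had a RefSeq promoter and 8 had a match to TGACNNNGC in at least 1 of their promoters (17.0%, against 14.0% of all genes with a promoter). Gclc, Gsr, Gsta4, Gstt2, Hmox1, Prdx6 and Sod3 had no promoter there and were not searched. Sequence outside the promoter windows was not searched either. The 8 with a match were Gclm, Gsta3, Gstm5, Gstm7, Mgst1, Prdx1, Sod1 and Txnrd1, of which Gstm5 was higher and the other 7 were lower. Of these 7, Gsta3 had enough counts only through WT31, where it is higher, so its call adds nothing. Sod1 (−0.39) was as low as the median gene of chromosome 16 (−0.42). Of the 26 tested members with a promoter and no match, 9 were higher and 11 lower. Among all genes tested, 33% of those with a match were higher and 37.2% lower, and of those with a promoter and no match 33.9% were higher and 35.9% lower. A match is a stretch of letters and not a measured binding site.

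The 5 WT31 libraries varied together in these genes. In 28 of the 41 tested members both replicate 2 and replicate 3 were below replicates 1, 4 and 5, against 27.2% of all genes tested, and 1 member was above them in both, against 26.9%. Gpx1, for example, averaged 138 CPM in replicates 2 and 3 and 173 CPM in the others. The sets of libraries were chosen after their counts were seen, so this is a description. Without these libraries, 12 members were higher and 23 lower: Sod3 (log2 fold change −0.26) and Txn1 (−0.10) were then called lower, Prdx2 (0.06) was no longer called higher, Gstt1 entered the fit only through WT31_P5IV, where it is higher, and is counted among the 12 on that account alone, and Gpx8 and Prdx5, not called either way, changed sign.

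**Figure D5:**
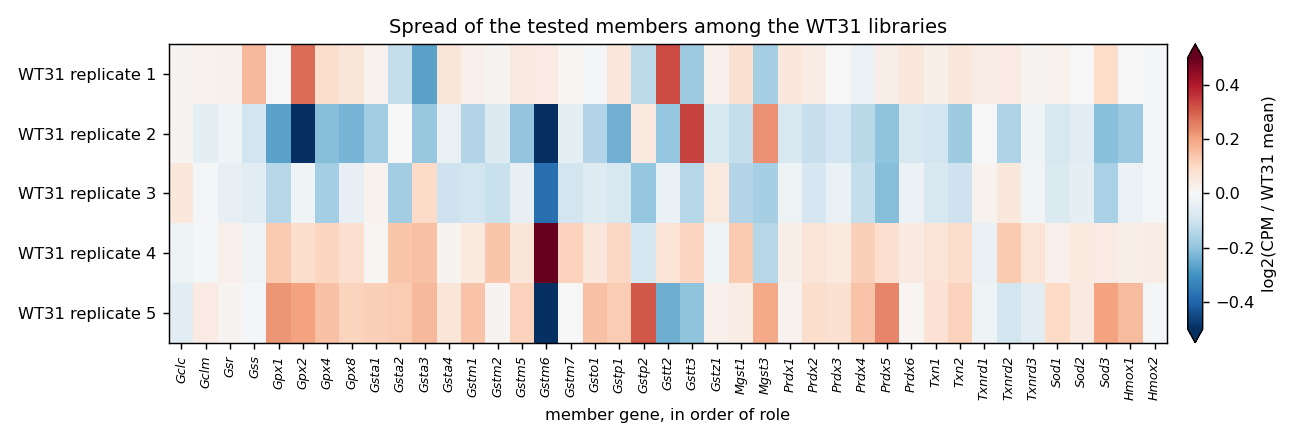
Log2 of CPM over the WT31 mean (colour, cut at −0.5 and 0.5) for the 41 tested members (x axis, in order of role) in each WT31 library (y axis). The rows of replicates 2 and 3 are mostly blue, as 28 members were below the other libraries in both.

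Genes around the module were counted in lists by role. Of the 98 list genes tested, 21 were higher and 57 lower, with a median log2 fold change of −0.18. All genes tested, against which these lists are to be read, stood at 34.6% higher and 33.9% lower. Those with a mean of at least 20 CPM, where many list genes lie, stood at 32.4% higher and 42.9% lower. Thioredoxin partners and glutaredoxins stood at 0 higher and 15 lower of 17 tested by edgeR (against 34.6% higher and 33.9% lower of all genes tested), with a median of −0.35, and at the same counts at an unadjusted p under 0.05 and by DESeq2 and limma voom. Among them was Txnip, which binds thioredoxin (19.1 to 21.6 CPM in WT31 and 12.5 to 16.8 CPM in WT31_P5IV, a log2 difference of −0.39). Sulfiredoxin, Srxn1, which repairs overoxidized peroxiredoxins, was named after its value was seen (149.9 ± 4.23 and 95.7 ± 4.65 CPM, log2 fold change −0.65). NADPH supply had 5 higher and 11 lower of 17 tested. G6pdx, the entry enzyme of the pentose phosphate pathway, was 60.4% of WT31 (288 ± 16.6 and 174 ± 5.13 CPM, edgeR adjusted p = 1.63e-09), and malic enzyme Me1 was 50.0% (154 ± 2.97 and 77.1 ± 0.955 CPM, edgeR adjusted p = 2.37e-12).

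For cysteine supply and glutathione turnover, 5 genes were higher and 4 lower of 11 tested. Slc7a11, the cystine importer that feeds glutathione synthesis, had 334 to 457 CPM in WT31 and 119.7 to 145 CPM in WT31_P5IV. It was 34% of WT31 (log2 fold change −1.56 ± 0.09 SE, edgeR adjusted p = 1.18e-09), a larger fall than that of any member of the synthesis group. Catalase, copper chaperone, heme and iron genes stood at 0 higher and 6 lower of 10 by edgeR, and again at an unadjusted p under 0.05 and by DESeq2 and limma voom. Cat, catalase itself, was 51.4% of WT31 (341 ± 12.7 and 175 ± 6.22 CPM, edgeR adjusted p = 2.7e-11), Aox1, an aldehyde oxidase, 42.1% (36.8 ± 1.42 and 15.5 ± 0.512 CPM, edgeR adjusted p = 9.63e-12), and Nqo2 was not called (29.7 ± 1.66 and 28.8 ± 1.21 CPM).

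NRF2 and its regulators had 2 genes higher and 6 lower of 11 tested. Nfe2l2, which encodes NRF2, was 81.5% of WT31 (393 ± 8.32 and 320.4 ± 5.85 CPM, log2 fold change −0.30 ± 0.03 SE, edgeR adjusted p = 8.72e-07). Keap1, which holds NRF2 for degradation, was not called (59.7 ± 2.58 and 57.9 ± 1.44 CPM, 95% interval −0.13 to 0.05). Bach1, a repressor at the same elements, was 49.9% of WT31 (61.5 ± 4.54 and 30.6 ± 1.6 CPM, edgeR adjusted p = 7.44e-10) and lies on chromosome 16 too. Transcript levels of these regulators do not measure NRF2 activity.

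Glyoxalase and carbonyl-reducing genes stood at 2 higher and 7 lower of 11 tested. Cbr1, carbonyl reductase on chromosome 16, had the largest fall of the lists, from 13.7 ± 0.93 to 0.701 ± 0.207 CPM (log2 fold change −4.28 ± 0.12 SE, edgeR adjusted p = 1.03e-12), and Akr1b8, an aldo-keto reductase, rose from 3.09 ± 0.418 to 7.25 ± 0.831 CPM (log2 fold change 1.23 ± 0.11 SE, edgeR adjusted p = 1.33e-07). Lipid peroxidation and ferroptosis genes had 2 higher and 2 lower of 6, and NADPH oxidases and other superoxide sources 1 higher and 0 lower of 4 tested (the same by edgeR at an unadjusted p under 0.05, DESeq2 and limma voom), with 9 genes in each of these lists.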

How the data were processed

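RNA of cultured WT31 and WT31_P5IV cells was sequenced in 5 libraries each. The authors trimmed reads with Trim Galore and pseudoaligned them with kallisto (versions 0.6.4 and 0.4.6 in the submitters' processing notes) to GRCm38.p6 transcripts, and deposited estimated counts summed per gene, not normalised. The authors also deposited TPM per gene, scaled by kallisto for transcript length and library total. The annotation release is not given in the sources used here, and 55144 of 55385 identifiers matched GENCODE M21 without their version.

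Estimated counts were rounded, filtered with filterByExpr, scaled by TMM and fitted over all genes with edgeR 4.0.16 (glmQLFit and glmQLFTest, R 4.3.3), with Benjamini-Hochberg adjustment over the 13620 genes tested. Of the 54 members, 13 were left out by the filter, and 5 of these with over 3 counts in a library were compared by exact two-sided permutation tests. Levels between genes used TPM. The limit of detection was 3 counts (0.114 to 0.129 CPM), and limits cover counting error only. Words of 31 bases shared between transcripts were counted from GENCODE M21. Promoters came from RefSeq tables of GRCm38.p6. Alternatives were DESeq2 1.42.0, limma 3.58.1 (voom with and without TMM, and log2 TPM with pseudocounts of 0.1 and 1), upper-quartile scaling, other filters, a replicate block, glmTreat at a fold change of 1.5, sums over copies and each library left out. Figures were drawn with matplotlib 3.10.9 under Python 3.11.15.

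The members, lists and tests were chosen with earlier results of these data known. Every tested member was named. Of the lists, Nfe2l2, Keap1, Bach1, Slc7a11, Txnip, G6pdx, Cat, Nqo2 and all genes past the study's filter were named. Srxn1 was named as well, after its value was seen. Protein sequences were not used here.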

Additional observations from a re-analysis of the deposited data

Results flagged for a closer look

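Single libraries stood apart from the other 4 of their group in 3 of 82 groups examined, by a gap above Dixon's 95% critical value, which chance exceeds in about 1 of 20 groups. Hmox2 read 55.1 CPM in WT31 replicate 4 and 53.3 to 53.5 CPM in the others. Mgst1 read 27.1 CPM in WT31_P5IV replicate 1 and 28.7 to 29.3 CPM in the others. Gsta3 read 0.248 CPM in WT31_P5IV replicate 5 and 0.161 to 0.172 CPM in the others, a difference of few counts. All 3 genes were lower in every WT31_P5IV library than in any WT31 library.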

How the results depend on the processing

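Of 41 tested members, 31 kept their direction and their side of the threshold in every alternative run for them. At most 23 members were lower and 13 higher outside the TPM scale. The 13 include Gstt1, which entered those fits only through WT31_P5IV, where it is higher. The replicate numbers did not pair the libraries (correlations of same-numbered deviations −0.0218, 0.0547, 0.302, 0.178 and −0.1), and with a replicate block 12 members were higher and 21 lower, with no member's call changed. On TPM, where the median gene moved by −0.167 (pseudocount 0.1) and −0.159 (pseudocount 1), the split was 11 higher and 26 lower with 3 past the study's filter, and 11 and 27 with 2. Over all genes tested it was 2915 higher and 5946 lower with a pseudocount of 0.1, against 4709 and 4618 on counts. Members near 0 turned there: Txnrd3 to −0.08 and −0.06, Prdx2 to −0.02 in both, Gpx8 to −0.13 in both and Prdx5 to −0.14 in both. Relative to the shift of all genes these were 0.09, 0.15, 0.04 and 0.03, close to the values on counts (0.09, 0.14, 0.07 and 0.03). Prdx5 also turned to −0.03 with limma voom without scaling or filter, −0.02 with every gene of at least 1 count, and −0.11 without WT31 replicates 2 and 3, a choice made after the data were seen, where Gpx8 was −0.03. With 1 library left out at a time Prdx5 ranged from −0.03 to 0.09. Txn1 was 0.00 with upper-quartile scaling. Except for the shift on TPM, the cause was not tested. Leaving out 1 library gave 12 to 13 members higher, 21 to 22 lower and 6 to 8 past the filter, where Gstt2 ranged from 0.83 to 1.1, Gstm6 from 0.94 to 1.44 and Prdx3 from −1.02 to −0.97. The runs with 13 higher or with 8 past the filter all count Gstt1, let in only through WT31_P5IV. On TPM, limma called Gclc lower (−0.20 in both, −0.04 relative to the shift) and also Gpx8 (adjusted p = 0.0378 and 0.0375), Txn1 (−0.20 in both), Gsta2 (−0.19 and −0.18), Sod3 (−0.30 in both) and, with a pseudocount of 1 alone, Gpx2 (−0.21). Sod3 was lower without WT31 replicate 2 (−0.20, edgeR adjusted p = 0.0176) or replicate 3 (−0.19, edgeR adjusted p = 0.0375). Requiring 10 counts in every library left 38 members. Each line is 1 culture line, protein and activity were not measured here, and counts shared between near-identical copies limit, among others, Gsta1, Gsta2, Gstp2 and Hmox2.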
